A study of Mus musculus with 11 samples.

Results

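The genes described here are the ligands and receptors of the 4 classical axon guidance systems, measured in the mouse in carotid body, in adrenal medulla and in the superior cervical ganglion. They were chosen by symbol alone: the semaphorins of classes 3 to 7 with the plexins and neuropilins, the ephrins with the Eph receptors, Slit1 to Slit3 with the Robo receptors, and the netrins with Dcc and the Unc5 receptors. Of 69 such symbols in the RefSeq gene table, 65 were measured among 30142 named genes. They comprise 33 ligands (19 semaphorins, 8 ephrins, 3 Slits and 3 netrins) and 32 receptors (9 plexins, the neuropilin Nrp2, 13 Eph receptors, 4 Robo receptors and 5 netrin receptors). The other 4, Nrp1, Sema4a, Ntn3 and Ephb2, were not analysed here. For Nrp1, Sema4a and Ntn3 the array's annotation pairs the transcript cluster with several symbols, and for Ephb2 it pairs none.

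All tissue came from C57B6 mice, male and female, 2 months old, with no treatment named in the labels. Each array was hybridised with total RNA of a pool of animals, 10 mice for each of the 3 carotid body arrays and 3 mice for each of the 4 arrays of adrenal medulla and the 4 of ganglion. The study asked what sets the carotid body, the arterial chemoreceptor that senses blood oxygen, apart from the adrenal medulla and the sympathetic ganglion, which also make catecholamines. A replicate is therefore a pool, p-values measure the spread between pools, and each tissue is a mixture of cell types.

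Axon guidance cues are secreted or membrane-bound proteins that attract or repel growing axons through receptors on the growth cone. Secreted class 3 semaphorins signal through neuropilins paired with plexins, membrane-bound semaphorins bind plexins directly, and ephrins signal through Eph tyrosine kinases on contact between cells. Slits repel through Robo receptors, and netrins attract through Dcc or repel through Unc5 receptors. Several of these proteins also act in blood vessels, and semaphorin signals through neuropilins help to place sympathetic neurons and their axons in the mouse embryo.

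Values are log2 signals on the scale of the deposited table and may be compared for 1 gene across tissues, not between genes. A difference was called at a limma adjusted p (Benjamini-Hochberg over all named genes) under 0.05 and a size of at least 1 on the log2 scale, which is 2-fold. From 540 genes of families taken as silent, a background bound was read for each tissue, at 5.41 in carotid body, 5.36 in adrenal medulla and 5.45 in ganglion. Where a tissue lay under its bound, a fold is given as "at least". Of the 65 genes, 57 had a mean above the bound in at least 1 tissue and 51 in all 3. Epha1, Epha6, Epha8, Ephb1, Ntn5, Robo3, Sema3a and Unc5d were under the bound in every tissue, so no statement on their levels can be made at this sensitivity.

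The makeup of the tissues differed, which touches every result below. In bulk RNA, fewer cells of a type and less RNA per cell cannot be told apart. The mean log2 signal of 12 neuronal markers ran from 13.97 to 14.35 on the ganglion arrays, from 10.51 to 12.18 on those of carotid body and from 9.27 to 9.69 on those of adrenal medulla. Carotid body replicate 1 had the highest neuronal mean of its tissue (12.18, against 10.51 and 11.44). Values without it are therefore given for Plxna3 and Sema7a, whose calls its omission changed. As examples, they are also given for Sema6d, Plxna4, Plxnc1 and Epha5. Its omission moved no called fold of the guidance ligands and receptors by over 1.5 times. The list of 9 fibroblast markers averaged 13.34 to 13.50 in carotid body, 8.28 to 8.46 in adrenal medulla and 9.43 to 9.75 in ganglion. The 10 endothelial markers averaged 10.27 to 10.34, 10.31 to 10.64 and 6.99 to 7.28 in the same order, and the 10 markers of pericytes and smooth muscle 10.78 to 11.29, 8.08 to 8.23 and 7.01 to 7.14. The adrenal medulla pools carried cortex: 9 of 9 markers of the adrenal cortex lay above the bound there, with means of 15.08 to 15.54, while 6 were under it in carotid body and 7 in ganglion. The 8 markers of catecholamine cells averaged 13.21 to 14.01 in carotid body, 17.48 to 17.81 in adrenal medulla and 13.37 to 13.86 in ganglion. All lay above the bound in every tissue except Pnmt, which was under it in ganglion. The 8 glial markers averaged 10.26 to 10.55 in carotid body, 7.80 to 7.99 in adrenal medulla and 9.93 to 10.65 in ganglion. For the 6 adipocyte markers the ranges were 9.16 to 9.89, 6.04 to 6.17 and 6.38 to 6.71 in the same order. The part that makeup plays in any difference below was not tested.

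**Figure D1:**
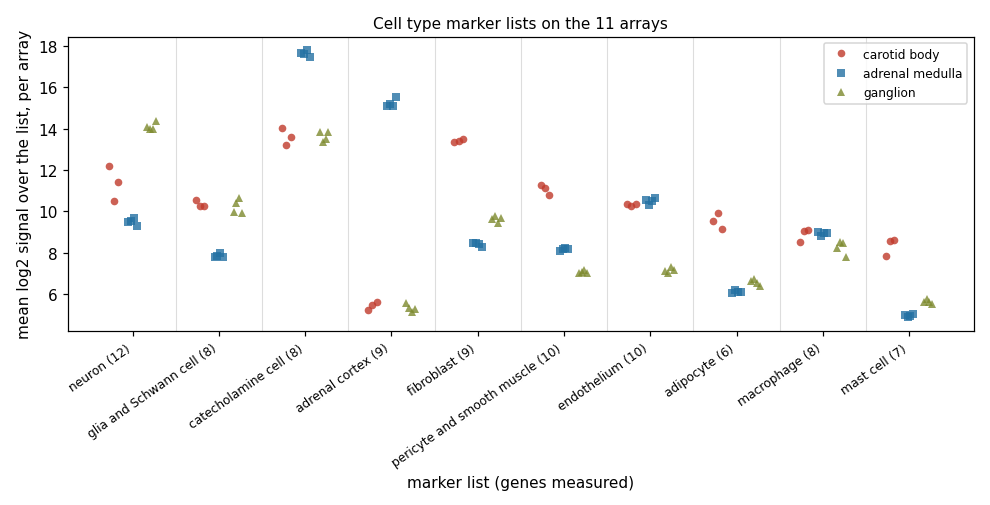
Mean log2 signal of each of 10 cell type marker lists (x axis, number of measured genes in brackets) on every array, with circles for carotid body, squares for adrenal medulla and triangles for ganglion. Neuronal markers were highest in ganglion (13.97 to 14.35), fibroblast markers in carotid body (13.34 to 13.50) and cortical markers in adrenal medulla (15.08 to 15.54), while endothelial markers were lowest in ganglion (6.99 to 7.28).

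Of the 65 guidance genes, 41 (63.1%) differed between at least 1 pair of tissues, where 21.6% of all named genes did and 37.0% of the 12421 protein-coding genes above the bound. Between carotid body and adrenal medulla 24 were called, which is 36.9% of the members, beside 11% of all named genes and 17.7% of those brighter protein-coding genes. Carotid body was higher for 15 and lower for 9, where 6.06% and 4.95% of all named genes were. Between carotid body and ganglion 30 were called, which is 46.2%, beside 13.9% and 24% in the same backgrounds. Carotid body was higher for 19 and lower for 11, beside 5.61% and 8.28% of all named genes. Between adrenal medulla and ganglion 29 were called, which is 44.6%, beside 13.2% and 24.7%. Adrenal medulla was higher for 16 and lower for 13, beside 5.72% and 7.50% of all named genes. The median difference of the members was 0.08, 0.18 and 0.11 in these comparisons, beside 0.05, -0.02 and -0.08 over all named genes. Each 2 of the 3 comparisons share the arrays of a tissue and are not independent. On all 83 called differences the arrays of the tissues compared did not overlap. A difference of at least 1 leaves little room for overlap where the median SD of members is 0.13 to 0.16. The share without overlap among all called genes is not given here, so this adds nothing to the calls.

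A total of 9 members were called higher in carotid body than in both other tissues, which is 13.8% of the members beside 2.42% of all named genes and 3.59% of the brighter protein-coding genes. They were the netrins Ntn1 and Ntn4, the ligands Slit3, Sema3g, Sema7a and Efnb2, and the Eph receptors Epha3, Epha4 and Ephb6. Adrenal medulla was highest for 6 members, 9.23% beside 2.45% and 5.22% in these backgrounds: Slit1, Slit2, Robo1, Robo2, Sema5a and Plxnb1. Ganglion was highest for 7 members, 10.8% beside 5.07% and 9.71%, so close to the share among the brighter genes: Efna5, Epha5, Plxna4, Plxnc1, Sema4d, Sema4f and Sema6d. Carotid body was lowest for 3 members (Dcc, Unc5a and Sema4b), 4.62% beside 1.68% and 3.06%. Adrenal medulla was lowest for 8 (Ntn4, Sema3b, Sema3c, Sema3e, Sema6d, Plxnb3, Plxnc1 and Ephb6), 12.3% beside 2.68% and 3.92%. Ganglion was lowest for 9 (Slit2, Sema3d, Sema3f, Sema5a, Plxnb2, Plxnd1, Robo4, Epha3 and Ephb4), 13.8% beside 2.28% and 3.87%. Among the 7 members called in all 3 comparisons, Ntn4, Epha3, Ephb6, Sema5a, Sema6d, Slit2 and Plxnc1, each tissue held a level of its own. They make 10.8% of the members, beside 2.64% and 4.47% in these backgrounds.

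**Figure D2:**
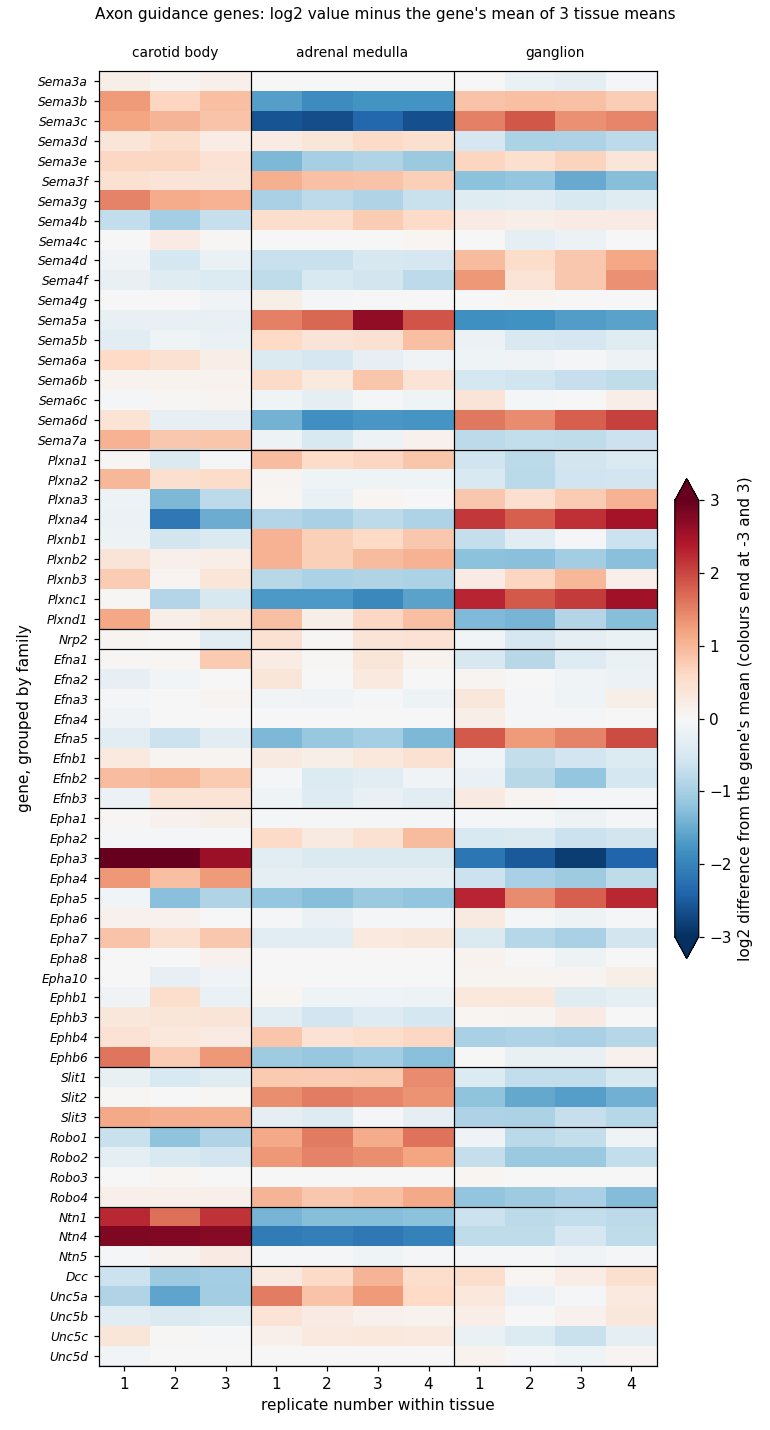
Log2 value of each of the 65 guidance genes (rows, grouped by family) on each of 11 arrays (columns, by tissue and replicate), minus the gene's mean of 3 tissue means, with colours ending at -3 and 3. Red blocks of one tissue mark Ntn1, Ntn4 and Epha3 in carotid body, Slit2, Robo1 and Sema5a in adrenal medulla, and Plxna4, Plxnc1, Efna5 and Epha5 in ganglion.

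Ligands and receptors of the same system were in some cases highest in the same tissue. Examples are Slit1 and Slit2 with Robo1 and Robo2 in adrenal medulla, Efna5 with Epha5 in ganglion, and Efnb2 with Epha4 in carotid body. Others were apart. Sema7a was highest in carotid body and its receptor Plxnc1 in ganglion, and Sema4d in ganglion and its receptor Plxnb1 in adrenal medulla. Sema5a was highest in adrenal medulla, where Plxnb3 was lowest, and Ntn1 in carotid body, where Dcc and Unc5a were lowest. These pairs were picked after the values were seen and were not counted against all pairs. The matching pairs were the reason to look at promoter sequence. RefSeq promoter windows of GRCm38.p6 (300 bases each, most of them before the start) were found for 55 of the 65 genes, 68 windows in all. The median GC content of the member windows was 64.5% and their CpG observed over expected ratio 0.67, against 52.7% and 0.38 over all 32851 windows. For members highest in carotid body these medians were 69.7% and 0.74 (8 windows). In the same way they were 65.0% and 0.65 for adrenal medulla (7 windows) and 54.3% and 0.4 for ganglion (9 windows). The windows of Efna5 (73.3% and 1.1) and Epha5 (64.3% and 1.0), printed below, thus lie above the ganglion medians. ACGTG, the core of the hypoxia response element, was found on either strand in 19.1% of member windows and 19.6% of all windows. The E-box CAGCTG was found in 17.6% and 16.3%, AAGGTCA, bound by orphan nuclear receptors such as NR5A1, in 4.41% and 4.72%, and the cAMP response element TGACGTCA, which holds no other of these motifs, in 1.47% and 1.79%. Letters alone describe a window and not a bound site. Windows are printed for Ntn4, which differed most between carotid body and adrenal medulla, and, as examples, for Slit2 with Robo1 and Efna5 with Epha5, a choice made after the values were seen. Sequences run 5′ to 3′ on the strand of the gene, and capitals mark CpG dinucleotides.
Ntn4 (GRCm38.p6, chr10:93640799-93641098, plus strand): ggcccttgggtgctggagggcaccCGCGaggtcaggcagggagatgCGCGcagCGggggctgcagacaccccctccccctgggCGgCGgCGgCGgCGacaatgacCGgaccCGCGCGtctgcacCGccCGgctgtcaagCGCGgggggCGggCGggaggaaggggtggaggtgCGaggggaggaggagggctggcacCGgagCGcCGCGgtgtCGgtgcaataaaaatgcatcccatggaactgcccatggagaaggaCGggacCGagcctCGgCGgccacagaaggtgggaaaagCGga
Slit2 (GRCm38.p6, chr5:47982905-47983204, plus strand): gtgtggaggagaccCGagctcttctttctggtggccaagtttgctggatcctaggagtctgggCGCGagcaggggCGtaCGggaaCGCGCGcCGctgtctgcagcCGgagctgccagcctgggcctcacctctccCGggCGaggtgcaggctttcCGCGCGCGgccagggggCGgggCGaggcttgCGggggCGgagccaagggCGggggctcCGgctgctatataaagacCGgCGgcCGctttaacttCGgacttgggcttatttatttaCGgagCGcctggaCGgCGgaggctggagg
Robo1 (GRCm38.p6, chr16:72662899-72663198, plus strand): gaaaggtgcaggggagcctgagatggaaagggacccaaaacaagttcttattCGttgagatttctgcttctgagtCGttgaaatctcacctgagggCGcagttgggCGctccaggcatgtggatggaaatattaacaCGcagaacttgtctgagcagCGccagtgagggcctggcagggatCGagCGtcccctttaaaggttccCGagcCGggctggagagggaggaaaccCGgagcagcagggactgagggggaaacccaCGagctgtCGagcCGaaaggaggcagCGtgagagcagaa
Efna5 (GRCm38.p6, chr17:62881268-62881567, minus strand): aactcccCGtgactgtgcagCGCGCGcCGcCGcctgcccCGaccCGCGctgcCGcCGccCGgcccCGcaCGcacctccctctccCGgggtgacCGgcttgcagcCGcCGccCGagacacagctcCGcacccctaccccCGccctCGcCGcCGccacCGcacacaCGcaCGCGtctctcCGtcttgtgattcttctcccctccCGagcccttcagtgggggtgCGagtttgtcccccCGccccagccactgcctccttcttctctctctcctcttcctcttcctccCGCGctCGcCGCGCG
Epha5 (GRCm38.p6, chr5:84417333-84417632, minus strand): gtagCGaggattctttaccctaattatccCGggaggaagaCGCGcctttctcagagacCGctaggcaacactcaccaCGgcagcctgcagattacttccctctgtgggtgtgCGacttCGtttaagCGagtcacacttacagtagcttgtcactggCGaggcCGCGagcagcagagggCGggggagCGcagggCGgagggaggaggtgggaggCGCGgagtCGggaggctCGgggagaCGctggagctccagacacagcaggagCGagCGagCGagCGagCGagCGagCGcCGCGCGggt
The windows held 31 CpG dinucleotides for Ntn4, 30 for Slit2, 15 for Robo1, 38 for Efna5 and 30 for Epha5. None of the 4 motifs was found in these 5 windows. Among the windows of the matching pairs that are not printed, that of Epha4 held ACGTG, and of the 3 windows of Robo2, 1 held CAGCTG and another ACGTG. Windows of other members held these motifs too, such as ACGTG for Ephb6 and Sema6d, CAGCTG for Sema3g and Sema7a, and AAGGTCA for Sema5a.

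Of the 7 secreted class 3 semaphorins measured, carotid body had 4 called higher and none lower relative to adrenal medulla. Relative to ganglion it had 3 higher and none lower, and between adrenal medulla and ganglion 2 were higher and 3 lower. In these comparisons 57.1%, 42.9% and 71.4% of the 7 were called. Of all named genes 11%, 13.9% and 13.2% were, and of the brighter protein-coding genes 17.7%, 24% and 24.7%. Sema3c, a ligand of neuropilins and of plexin-D1 with roles in heart and vessel development, read 10.63, 10.46 and 10.30 on the carotid body arrays, 6.85, 6.79, 7.10 and 6.82 on those of adrenal medulla and 10.96, 11.30, 10.81 and 10.92 on those of ganglion. The adrenal medulla arrays lay well under all others, and those of carotid body and ganglion did not overlap. The difference of carotid body from adrenal medulla was 3.57 (SE 0.13, limma adjusted p = 1.23e-08), which is 11.9-fold, and that of adrenal medulla from ganglion -4.11 (SE 0.12, limma adjusted p = 1.96e-09), which is 17.3-fold. Carotid body and ganglion differed by -0.54 (adjusted p = 0.00767), under the size needed for a call.

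Sema3b, a secreted repellent that acts through neuropilins, was also lowest in adrenal medulla. It read 9.70, 9.07 and 9.35 on the carotid body arrays, 6.79, 6.54, 6.64 and 6.63 on those of adrenal medulla and 9.30, 9.33, 9.30 and 9.18 on those of ganglion. Carotid body exceeded adrenal medulla by 2.72 (SE 0.13, limma adjusted p = 9.73e-08), which is 6.60-fold, while its arrays overlapped those of ganglion. Adrenal medulla differed from ganglion by -2.63 (6.17-fold). Sema3e, which binds plexin-D1 without a neuropilin, was again lowest in adrenal medulla (6.26 ± 0.19, SD, n = 4) and nearly level between carotid body (7.91 ± 0.12, n = 3) and ganglion (7.90 ± 0.14, n = 4).

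Sema3f, whose preferred neuropilin is Nrp2, had another pattern. It read 7.92, 7.86 and 7.86 on the carotid body arrays, 8.54, 8.36, 8.33 and 8.19 on those of adrenal medulla and 6.24, 6.32, 5.95 and 6.19 on those of ganglion. All carotid body and adrenal medulla arrays stood above the ganglion arrays, by 1.71 (3.26-fold) for carotid body and 2.18 (SE 0.10, limma adjusted p = 2.06e-08) for adrenal medulla, which is 4.53-fold. Sema3d, a secreted semaphorin, followed it with 1.16 and 1.21 over ganglion. Sema3g, known from endothelium and fat, was highest in carotid body (7.49 ± 0.24), over adrenal medulla by 2.04 (at least 4.10-fold, since an adrenal medulla array lay under the bound) and over ganglion by 1.59. Sema3a, the classical sympathetic repellent, was under the bound in all 3 tissues.

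Of the 12 membrane-bound semaphorins measured, carotid body had 2 higher and 2 lower relative to adrenal medulla and 2 higher and 4 lower relative to ganglion. Adrenal medulla had 2 higher and 3 lower than ganglion. This makes 33.3%, 50% and 41.7% called, beside 11%, 13.9% and 13.2% of all named genes and 17.7%, 24% and 24.7% of the brighter protein-coding genes. Sema5a, a transmembrane semaphorin with thrombospondin repeats, read 7.76, 7.76 and 7.76 on the carotid body arrays, 9.49, 9.71, 10.64 and 9.88 on those of adrenal medulla and 6.13, 6.18, 6.32 and 6.39 on those of ganglion. Adrenal medulla stood highest and ganglion lowest, with no overlap of tissues. The same value stands on every carotid body array, so the SD there is no measure of spread. Carotid body differed from adrenal medulla by -2.17 (SE 0.22, limma adjusted p = 2.37e-05), which is 4.51-fold lower, and adrenal medulla exceeded ganglion by 3.68 (SE 0.20, limma adjusted p = 1.15e-07), which is 12.8-fold. Over ganglion, carotid body stood higher by 1.51 (2.84-fold).

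Sema6d, a transmembrane ligand of plexin-A1 in the mouse, ran in the opposite order. It read 10.31, 9.66 and 9.66 on the carotid body arrays, 8.47, 8.06, 8.15 and 8.14 on those of adrenal medulla and 11.49, 11.32, 11.69 and 11.94 on those of ganglion. The ganglion arrays were highest, those of adrenal medulla lowest, and the tissues did not overlap. Adrenal medulla differed from ganglion by -3.40 (SE 0.18, limma adjusted p = 7.81e-08), which is 10.6-fold lower. Carotid body differed from ganglion by -1.73 (SE 0.19, limma adjusted p = 3.81e-05), and by -1.95 without its replicate 1, and it exceeded adrenal medulla by 1.67 (3.18-fold). Sema4d, a ligand of plexin-B1, and Sema4f, a neuronal class 4 semaphorin, were also highest in ganglion. Sema4d stood lower in carotid body than there by 1.15 and in adrenal medulla by 1.45, and Sema4f by 1.30 and 1.61.

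Sema4b, another class 4 semaphorin, was lowest in carotid body, with 7.40, 7.12 and 7.45 on the carotid body arrays, 8.68, 8.67, 8.91 and 8.73 on those of adrenal medulla and 8.39, 8.32, 8.39 and 8.39 on those of ganglion. None of its carotid body arrays reached any array of the other tissues. Its difference was -1.42 (SE 0.09, limma adjusted p = 1.05e-06) against adrenal medulla, and -1.05 against ganglion. That second call is near the limit and is lost without carotid body replicate 2 (-0.95). Sema7a, a lipid-anchored ligand of plexin-C1 and integrins, was highest in carotid body (7.58 ± 0.13), by 1.06 over adrenal medulla (6.52 ± 0.24) and 1.63 over ganglion (5.95 ± 0.06). The first of these falls to 0.99 without carotid body replicate 1 and to 0.96 without adrenal medulla replicate 2, which ends that call. Sema6b, a transmembrane ligand of class A plexins, was called only between adrenal medulla and ganglion (1.17). Sema4c, Sema4g, Sema5b, Sema6a and Sema6c passed in no comparison. Among these, Sema5b came nearest, with 0.97 (adjusted p = 6.95e-05) between adrenal medulla and ganglion.

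**Figure D3:**
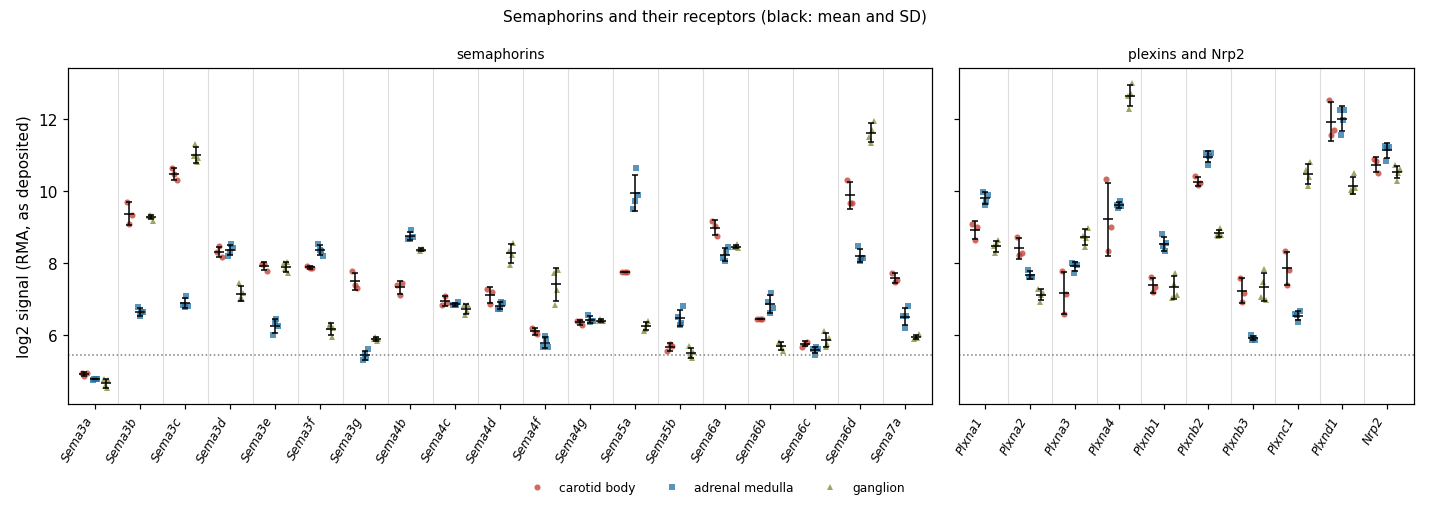
Log2 signal of 19 semaphorins (left) and of 9 plexins and Nrp2 (right) on every array, with circles for carotid body, squares for adrenal medulla, triangles for ganglion, black bars for the mean and SD over n = 3 or n = 4 arrays, and a dotted line at 5.45, the highest of the 3 background bounds. Sema3b, Sema3c and Sema3e sit low in adrenal medulla alone, while Plxna4, Plxnc1 and Sema6d are highest in ganglion.

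All 9 plexins, the signal-transducing receptors of semaphorins, lay above the bound in every tissue. Relative to adrenal medulla, carotid body had 2 higher and 1 lower, and relative to ganglion 3 higher and 3 lower. Adrenal medulla had 4 higher and 3 lower than ganglion. The shares called were 33.3%, 66.7% and 77.8%, beside 11%, 13.9% and 13.2% of all named genes and 17.7%, 24% and 24.7% of the brighter protein-coding genes. Plxna4, a partner of neuropilins that is known from sensory and sympathetic neurons, read 10.32, 8.33 and 9.0 on the carotid body arrays, 9.62, 9.53, 9.71 and 9.57 on those of adrenal medulla and 12.62, 12.28, 12.68 and 12.99 on those of ganglion. Every ganglion array was above every other, while the carotid body arrays spread around those of adrenal medulla, with an SD of 1.01, the widest of all members there. The difference of carotid body from ganglion came to -3.42 (SE 0.36, limma adjusted p = 3.05e-05), which is 10.7-fold lower. Left out in turn, carotid body replicates 1, 2 and 3 gave -3.98, -2.98 and -3.31. Adrenal medulla differed from ganglion by -3.04 (SE 0.34, limma adjusted p = 3.21e-05), which is 8.20-fold lower. The carotid body array with the highest Plxna4, replicate 1, was also the array with the highest neuronal marker mean, and the part of neuronal RNA in this spread was not tested.

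Plxnc1, the receptor of Sema7a, read 8.34, 7.41 and 7.82 on the carotid body arrays, 6.58, 6.57, 6.36 and 6.68 on those of adrenal medulla and 10.58, 10.14, 10.38 and 10.80 on those of ganglion. The 3 tissues were fully apart, with ganglion highest and adrenal medulla lowest. Carotid body differed from ganglion by -2.62 (SE 0.21, limma adjusted p = 4.62e-06), which is 6.16-fold lower, and by -2.86 without its replicate 1. Adrenal medulla differed from ganglion by -3.93 (SE 0.19, limma adjusted p = 5.1e-08), which is 15.2-fold lower. Its ligand Sema7a was thus highest in carotid body, where Plxnc1 was at an intermediate level, 1.31 above adrenal medulla.

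Plxna3, another class A plexin with roles in sympathetic and sensory axons, read 7.77, 6.60 and 7.15 on the carotid body arrays, 7.99, 7.72, 7.99 and 7.95 on those of adrenal medulla and 8.75, 8.44, 8.70 and 8.98 on those of ganglion. The ganglion arrays were again above all others. The difference of carotid body from ganglion was -1.55 (SE 0.23, limma adjusted p = 0.000308), which is 2.92-fold lower. Between carotid body and adrenal medulla the arrays overlapped and the difference was -0.74 (adjusted p = 0.0314), which becomes -1.04 and passes when carotid body replicate 1 is left out.

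Plxnd1 and Plxnb2 ran the other way, lowest in ganglion. Plxnd1, the endothelial receptor of Sema3e, read 12.53, 11.54 and 11.70 on the carotid body arrays, 12.25, 11.54, 11.98 and 12.25 on those of adrenal medulla and 10.02, 9.97, 10.49 and 10.09 on those of ganglion. Carotid body exceeded ganglion by 1.78 (SE 0.25, limma adjusted p = 0.00021), which is 3.43-fold, and adrenal medulla exceeded it by 1.86 (3.63-fold). Carotid body and adrenal medulla overlapped. Plxnb2, a widely used class B plexin, read 10.40, 10.17 and 10.21 on the carotid body arrays, 11.04, 10.73, 10.97 and 11.04 on those of adrenal medulla and 8.78, 8.76, 8.97 and 8.77 on those of ganglion. No ganglion array reached the other tissues, and adrenal medulla exceeded ganglion by 2.12 (SE 0.09, limma adjusted p = 2.08e-08), which is 4.36-fold, and carotid body exceeded it by 1.44 (2.71-fold). Endothelial markers were likewise lowest in ganglion, with 10 of 10 called lower there than in carotid body and 8 of 10 lower than in adrenal medulla, and their part in the Plxnd1 difference was not tested.

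Plxnb1, the receptor of Sema4d, was highest in adrenal medulla (8.54 ± 0.19), 1.16 above carotid body and 1.22 above ganglion. Plxnb3, which binds Sema5a, was lowest in adrenal medulla (5.92 ± 0.06), where Sema5a itself was highest. Its difference there was -1.41 from ganglion, and carotid body stood 1.31 above adrenal medulla. Plxna1 was called between adrenal medulla and ganglion (1.32) and Plxna2 between carotid body and ganglion (1.29). Nrp2, the co-receptor of Sema3f, was called nowhere, at 10.73 ± 0.21 in carotid body, 11.12 ± 0.20 in adrenal medulla and 10.52 ± 0.18 in ganglion. Its largest difference was 0.60 (adjusted p = 0.00415), between adrenal medulla and ganglion.

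Among the 8 ephrins, the ligands of Eph receptors, 2 were called in at least 1 comparison, beside 21.6% of all named genes. Between carotid body and adrenal medulla 12.5% were called, between carotid body and ganglion 25% and between adrenal medulla and ganglion 12.5%. Of all named genes 11%, 13.9% and 13.2% were, and of the brighter protein-coding genes 17.7%, 24% and 24.7%. The ephrin shares thus lie near or under those of the brighter genes. Efna5, a lipid-anchored ephrin, read 10.91, 10.58 and 10.91 on the carotid body arrays, 9.86, 10.08, 10.19 and 9.86 on those of adrenal medulla and 13.06, 12.49, 12.71 and 13.18 on those of ganglion. Ganglion was highest and no tissues overlapped. Both other tissues were below it: carotid body differed from ganglion by -2.06 (SE 0.17, limma adjusted p = 5.43e-06), which is 4.16-fold lower, and adrenal medulla by -2.86 (SE 0.16, limma adjusted p = 1.12e-07), which is 7.27-fold lower. Carotid body exceeded adrenal medulla by 0.80 (adjusted p = 0.00386), under the size for a call. Efnb2, a transmembrane ephrin that marks arteries, was highest in carotid body (10.33 ± 0.11, against 9.20 ± 0.17 in adrenal medulla and 8.74 ± 0.41 in ganglion), by 1.13 (2.18-fold) and 1.59 (3.01-fold). Median centring brings the first to 0.97, which ends that call and with it the place of Efnb2 among the members highest in carotid body. Efna1, Efna2, Efna3, Efna4, Efnb1 and Efnb3 were called in no comparison. The nearest of these to a call was Efna1, the preferred ligand of Epha2, with 0.77 (adjusted p = 0.011) between carotid body and ganglion.

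Of the 13 Eph receptors carotid body had 3 higher and none lower relative to adrenal medulla, and 5 higher and 1 lower relative to ganglion. Adrenal medulla had 3 higher and 2 lower than ganglion. In these comparisons 23.1%, 46.2% and 38.5% of the 13 were called. Of all named genes 11%, 13.9% and 13.2% were, and of the brighter protein-coding genes 17.7%, 24% and 24.7%. Epha3, a receptor of class A ephrins that mesenchymal cells also express, read 10.52, 10.61 and 10.10 on the carotid body arrays, 7.19, 7.08, 7.08 and 7.08 on those of adrenal medulla and 5.36, 5.0, 4.68 and 5.16 on those of ganglion. It was high on every carotid body array, low in adrenal medulla, and under the bound on all ganglion arrays. A single value stands on 3 of the 4 adrenal medulla arrays, which limits the SD there. Carotid body exceeded ganglion by 5.37 (SE 0.16, limma adjusted p = 5.63e-09), which is at least 31.2-fold, the largest difference of any member. It exceeded adrenal medulla by 3.30 (SE 0.16, limma adjusted p = 1.17e-07), which is 9.86-fold. Adrenal medulla exceeded ganglion by 2.06 (at least 3.16-fold). All 9 fibroblast markers were higher in carotid body than in either other tissue as well. Between adrenal medulla and ganglion, 1 of them was called higher in adrenal medulla and 5 lower, with a list median of -1.30. The part of fibroblasts was not tested.

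Epha4, which binds ephrins of both classes, read 7.44, 7.04 and 7.42 on the carotid body arrays, 5.86, 5.86, 5.86 and 5.86 on those of adrenal medulla and 5.49, 5.18, 5.08 and 5.39 on those of ganglion. Carotid body was above every other array, and in ganglion 3 of 4 arrays lay under the bound. Carotid body exceeded ganglion by 2.02 (SE 0.12, limma adjusted p = 7.06e-07), which is at least 3.61-fold. Over adrenal medulla the difference was 1.44 (2.72-fold). A single value stands on all adrenal medulla arrays, so the SD there is no measure of spread. Ephb6, an Eph receptor whose kinase domain lacks activity, read 10.17, 9.34 and 9.87 on the carotid body arrays, 7.52, 7.43, 7.53 and 7.32 on those of adrenal medulla and 8.57, 8.35, 8.35 and 8.71 on those of ganglion. Carotid body was highest and adrenal medulla lowest without overlap. The difference of carotid body was 2.34 (SE 0.17, limma adjusted p = 2.22e-06) against adrenal medulla, which is 5.08-fold, and 1.30 against ganglion (2.46-fold). Adrenal medulla and ganglion differed by -1.04, a call that 3 of the other settings and the omission of ganglion replicate 4 (-0.97) end.

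Epha5, a neuronal receptor of Efna5, read 8.92, 7.75 and 8.12 on the carotid body arrays, 7.84, 7.72, 7.90 and 7.82 on those of adrenal medulla and 11.28, 10.42, 10.80 and 11.26 on those of ganglion. Every ganglion array exceeded every other, as for its ligand, and carotid body overlapped adrenal medulla. Carotid body differed from ganglion by -2.68 (SE 0.27, limma adjusted p = 2.02e-05), which is 6.42-fold lower, and by -3.01 without its replicate 1. Adrenal medulla differed from ganglion by -3.12 (SE 0.25, limma adjusted p = 2.26e-06), which is 8.71-fold lower. Of the 12 neuronal markers, 11 were likewise lower than in ganglion in carotid body and in adrenal medulla, and their part was not tested.

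Ephb4, the venous receptor of Efnb2, was lowest in ganglion (6.82 ± 0.05). It stood 1.26 higher in carotid body (8.08 ± 0.10) and 1.54 higher in adrenal medulla (8.36 ± 0.17). Epha7, a further receptor of class A ephrins, was called between carotid body and ganglion (1.42). Epha2, which occurs mainly in epithelia and vessels, was called between adrenal medulla and ganglion (1.09), a call lost without adrenal medulla replicate 4 (0.96). Ephb3 was not called, with 0.82 (adjusted p = 3.25e-05) between carotid body and adrenal medulla. Epha10 was not called either, and Epha1, Epha6, Epha8 and Ephb1 stayed under the bound. Ephb1 is paired with a pair of transcript clusters, of which the brighter was used, and its other cluster was also under the bound in all 3 tissues.

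**Figure D4:**
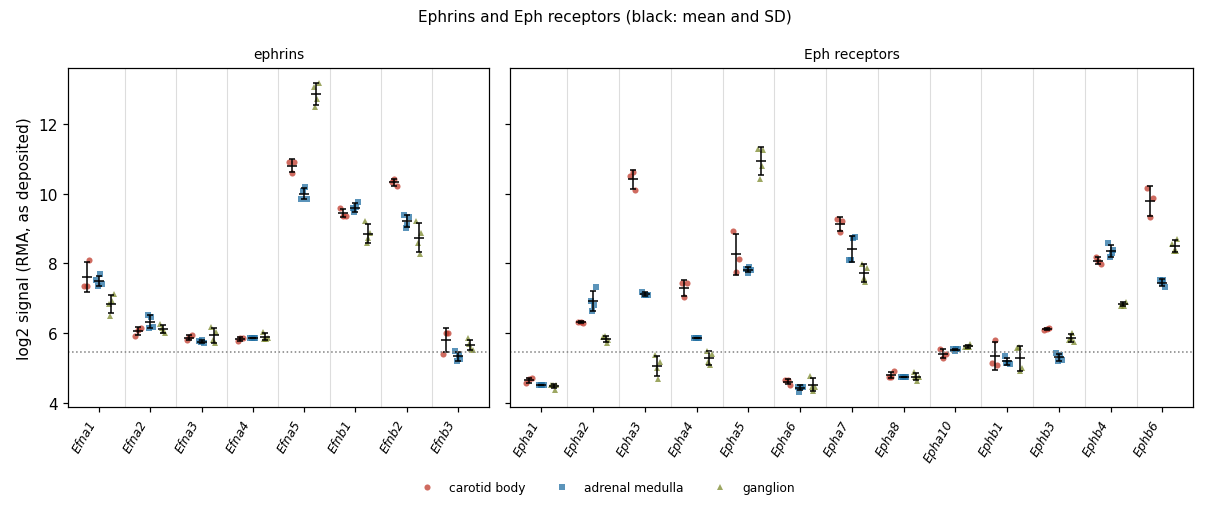
Log2 signal of 8 ephrins (left) and 13 Eph receptors (right) on every array, with circles for carotid body, squares for adrenal medulla, triangles for ganglion, black bars for the mean and SD over n = 3 or n = 4 arrays, and a dotted line at 5.45, the highest of the 3 background bounds. Efna5 and Epha5 are highest in ganglion, and Epha3, Epha4 and Ephb6 in carotid body.

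The Slits, secreted ligands of Robo receptors, were all above the bound in every tissue. In the 3 comparisons 100%, 66.7% and 66.7% of the 3 Slits were called. Of all named genes 11%, 13.9% and 13.2% were, and of the brighter protein-coding genes 17.7%, 24% and 24.7%. Slit2 read 7.32, 7.31 and 7.32 on the carotid body arrays, 8.70, 8.83, 8.75 and 8.64 on those of adrenal medulla and 6.10, 5.75, 5.65 and 5.85 on those of ganglion. The order was adrenal medulla, carotid body, ganglion, with no overlap. Adrenal medulla exceeded ganglion by 2.89 (SE 0.09, limma adjusted p = 3.86e-09), which is 7.42-fold. Carotid body was lower than adrenal medulla (-1.41, 2.66-fold) and higher than ganglion (1.48, 2.79-fold). Slit1, which the nervous system makes above other tissues, was highest in adrenal medulla as well (7.40 ± 0.32), 1.52 above ganglion and 1.28 above carotid body.

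Slit3 had its peak in carotid body instead. It read 12.08, 12.03 and 12.01 on the carotid body arrays, 10.67, 10.55, 10.89 and 10.67 on those of adrenal medulla and 10.02, 9.99, 10.24 and 10.09 on those of ganglion. The carotid body arrays lay within a narrow range above all others. Carotid body exceeded ganglion by 1.96 (SE 0.09, limma adjusted p = 1.39e-07), which is 3.88-fold, and adrenal medulla by 1.35 (2.54-fold). Adrenal medulla exceeded ganglion by 0.61 (adjusted p = 0.000196), under the size for a call. Slit3 is known from mesenchymal cells and smooth muscle, whose marker list was likewise highest in carotid body (8 of 10 called higher than in ganglion and 7 of 10 higher than in adrenal medulla), and the part of such cells was not tested.

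Of the 4 Robo receptors, carotid body had 2 lower and none higher relative to adrenal medulla and 1 higher relative to ganglion. Adrenal medulla had 3 higher than ganglion. The shares called were 50%, 25% and 75%, beside 11%, 13.9% and 13.2% of all named genes and 17.7%, 24% and 24.7% of the brighter protein-coding genes. Robo1, a receptor of all 3 Slits, read 9.23, 8.70 and 9.0 on the carotid body arrays, 11.05, 11.48, 11.01 and 11.55 on those of adrenal medulla and 9.80, 9.09, 9.20 and 9.81 on those of ganglion. The adrenal medulla arrays were above all others, and carotid body overlapped ganglion. Against adrenal medulla, carotid body gave -2.30 (SE 0.22, limma adjusted p = 1.77e-05), which is 4.91-fold lower, and adrenal medulla exceeded ganglion by 1.80 (3.47-fold). Robo2, the second neuronal Slit receptor, read 5.90, 5.70 and 5.60 on the carotid body arrays, 7.45, 7.64, 7.56 and 7.34 on those of adrenal medulla and 5.43, 5.04, 5.05 and 5.43 on those of ganglion. It was highest in adrenal medulla and under the bound on all ganglion arrays. The carotid body value relative to adrenal medulla was -1.77 (SE 0.13, limma adjusted p = 2.11e-06), which is 3.40-fold lower. Adrenal medulla exceeded ganglion by 2.26 (SE 0.12, limma adjusted p = 8.79e-08), which is at least 4.13-fold. Slit1, Slit2, Robo1 and Robo2 were thus all highest in the adrenal medulla pools, in which cortical markers were abundant, and which cells of the gland carried these transcripts was not tested.

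Robo4, the Robo receptor of endothelium, read 7.53, 7.53 and 7.53 on the carotid body arrays, 8.40, 8.18, 8.27 and 8.5 on those of adrenal medulla and 6.19, 6.30, 6.40 and 6.07 on those of ganglion. Again a single value stands on all carotid body arrays. Ganglion was lowest, and adrenal medulla exceeded it by 2.10 (SE 0.09, limma adjusted p = 1.88e-08), which is 4.28-fold, and carotid body by 1.29 (2.45-fold). Between carotid body and adrenal medulla the difference was -0.80 (adjusted p = 0.0001), without overlap but under the size for a call. The endothelial markers were also lowest in ganglion, and their part was not tested. Robo3, which regulates midline crossing, was under the bound throughout.

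Netrins gave the largest difference between carotid body and adrenal medulla of any member. Ntn4, a netrin of basement membranes that binds laminin, read 10.94, 10.90 and 10.86 on the carotid body arrays, 6.03, 6.09, 5.99 and 6.10 on those of adrenal medulla and 7.37, 7.37, 7.62 and 7.37 on those of ganglion. The 3 tissues were far apart relative to their spread, though 1 value stands on 3 of the 4 ganglion arrays, which limits the SD there. Carotid body exceeded adrenal medulla by 4.85 (SE 0.08, limma adjusted p = 1.96e-11), which is 28.8-fold, and ganglion by 3.46 (SE 0.08, limma adjusted p = 1.07e-09), which is 11-fold. Adrenal medulla was lower than ganglion (-1.38, 2.61-fold). Leaving out any carotid body array kept the first difference between 4.83 and 4.86.

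Ntn1, the classical netrin that attracts axons through Dcc, read 9.93, 9.32 and 9.82 on the carotid body arrays, 6.27, 6.37, 6.36 and 6.43 on those of adrenal medulla and 7.0, 6.87, 6.92 and 6.87 on those of ganglion. The carotid body arrays stood above all others. The difference was 3.33 (SE 0.13, limma adjusted p = 1.82e-08) from adrenal medulla, which is 10.1-fold, and 2.77 (SE 0.13, limma adjusted p = 1.13e-07) from ganglion, which is 6.83-fold. Adrenal medulla and ganglion differed by -0.56 (adjusted p = 0.00334), under the size for a call. Ntn5 was under the bound in every tissue.

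Of the 5 netrin receptors, 2 (Dcc and Unc5a) were called lower in carotid body than in both other tissues, and none was called higher there. Of all named genes 1.68% were lowest in carotid body in this sense, and of the brighter protein-coding genes 3.06%. Dcc, the attractive netrin receptor, read 6.22, 5.79 and 5.86 on the carotid body arrays, 7.16, 7.46, 7.91 and 7.40 on those of adrenal medulla and 7.40, 6.93, 7.10 and 7.37 on those of ganglion. No carotid body array reached the others, while adrenal medulla and ganglion overlapped. Carotid body differed from adrenal medulla by -1.52 (SE 0.18, limma adjusted p = 9.52e-05), which is 2.88-fold lower, and from ganglion by -1.24 (2.37-fold lower). Unc5a, a neuronal receptor of the repulsive netrin response, read 8.08, 7.41 and 7.93 on the carotid body arrays, 10.52, 9.84, 10.26 and 9.59 on those of adrenal medulla and 9.29, 8.82, 8.94 and 9.28 on those of ganglion. Its tissues did not overlap, with carotid body lowest and adrenal medulla highest. Its carotid body difference was -2.25 (SE 0.24, limma adjusted p = 3.48e-05), from adrenal medulla, which is 4.74-fold lower, and -1.27 from ganglion (2.42-fold lower). Adrenal medulla exceeded ganglion by 0.97 (adjusted p = 0.00494), just under the size for a call. That difference passes in 8 of the alternative settings, up to 1.13.

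Unc5b, which endothelium and other cells use, was not called, at 7.12 ± 0.06 in carotid body, 7.72 ± 0.14 in adrenal medulla and 7.66 ± 0.14 in ganglion. Unc5c, a further repulsive receptor, was not called either, at 8.41 ± 0.22, 8.55 ± 0.07 and 7.90 ± 0.20 in the same order. Unc5d stayed under the bound.

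**Figure D5:**
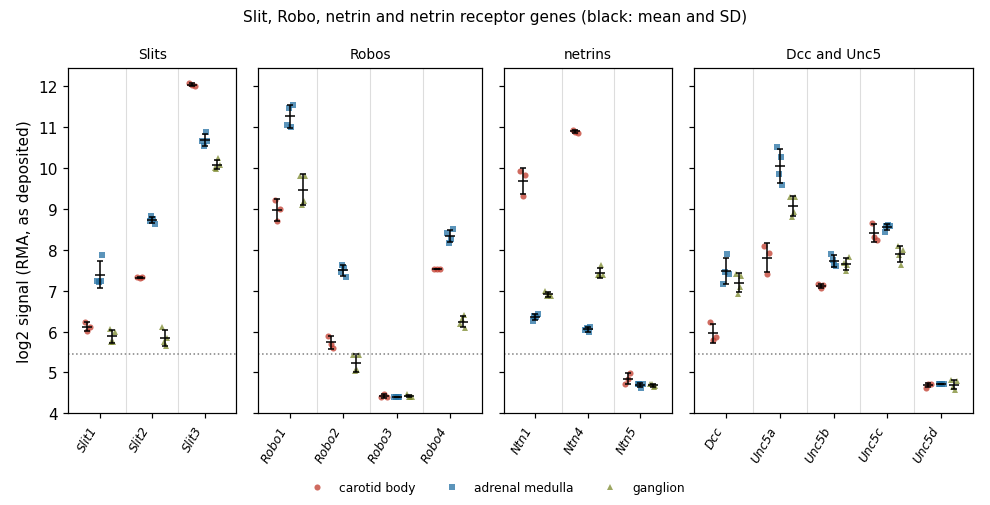
Log2 signal of the Slits, Robo receptors, netrins and netrin receptors on every array, with circles for carotid body, squares for adrenal medulla, triangles for ganglion, black bars for the mean and SD over n = 3 or n = 4 arrays, and a dotted line at 5.45, the highest of the 3 background bounds. Ntn1, Ntn4 and Slit3 are highest in carotid body, where Dcc and Unc5a are lowest, and Slit2, Robo1 and Robo2 are highest in adrenal medulla.

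By role, carotid body had 10 of 33 ligands higher and 4 lower relative to adrenal medulla, and 5 of 32 receptors higher and 5 lower, beside 6.06% of all named genes higher and 4.95% lower. Against ganglion 10 ligands were higher and 5 lower in carotid body, and 9 receptors higher and 6 lower, beside 5.61% and 8.28%. Between adrenal medulla and ganglion 6 ligands were higher and 8 lower, and 10 receptors higher and 5 lower, beside 5.72% and 7.50%.

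Other cues and co-receptors of guidance were read from a list of 24 genes, of which 23 were measured. In carotid body 5 were higher and 4 lower than in adrenal medulla. The largest were Chl1 4.69 (25.8-fold) and L1cam 1.5 (2.83-fold), adhesion molecules that join semaphorin receptors, Flrt2 2.11 (4.31-fold), a ligand of Unc5 receptors, Rgmb 1.39 (2.61-fold), a ligand of neogenin, and, among those lower, Kdr -1.91 (3.75-fold), an endothelial VEGF receptor, and Neo1 -1.54 (2.90-fold), neogenin itself. Also lower were Ptprf -1.37 (2.58-fold), a receptor phosphatase, and Flrt3 -1.01 (2.02-fold). The L1cam call rests on carotid body replicate 1 and is lost without it (0.88), and that of Flrt3, at the limit, is lost with the replicate block (-0.99), without adrenal medulla replicate 1, 2 or 4 (-0.99, -0.93 and -0.98) and, just short of the limit, without carotid body replicate 1 or 3. The remaining gene called higher, Met, had means under the bound in both tissues, so no fold is given. Without carotid body replicate 1, Nrcam (-1.61) and Flrt1 (-1.22) were called lower as well. The median of the list was 0.06, beside 0.05 over all named genes, of which 6.06% were called higher and 4.95% lower. Of the brighter protein-coding genes 17.7% were called. Against ganglion, 2 were higher in carotid body, Kdr 3.73 (13.3-fold) and Vegfa 2.10 (4.29-fold), a growth factor that also binds neuropilins. Lower there were Nrcam -3.98 (15.8-fold), an adhesion partner of Nrp2, Rgmb -1.91 (3.76-fold), L1cam -1.78 (3.43-fold) and Flrt1 -1.04 (2.05-fold). Without carotid body replicate 1, Nrcam came to -4.60 and L1cam to -2.40, both moved by over 1.5 times, and 7 genes were lower in place of 4. The genes gained were Chl1 (-1.11), Rtn4 (-1.09) and Ptprf (-1.03). The Flrt1 call is near the limit and is lost without carotid body replicate 2 (-0.84) or 3 (-0.90) and without ganglion replicate 1 (-0.95). The median was -0.16, beside -0.02 over all named genes, of which 5.61% were called higher and 8.28% lower. Of the brighter protein-coding genes 24% were called. Adrenal medulla had 4 higher than ganglion, Kdr 5.64 (49.9-fold), Vegfa 2.30 (4.92-fold), Flrt3 1.70 (at least 3.05-fold) and Neo1 1.52 (2.87-fold). It had 6 lower, led by Chl1 -5.56 (47.3-fold), Rgmb -3.30 (9.82-fold), L1cam -3.28 (9.71-fold) and Nrcam -2.99 (7.96-fold). The median was -0.32, beside -0.08 over all named genes, of which 5.72% were called higher and 7.50% lower. Of the brighter protein-coding genes 24.7% were called. Kdr also stands in the endothelial marker list.

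Intracellular mediators of guidance signals were read from a list of 51 genes, of which 47 were measured. In carotid body 8 were higher than in adrenal medulla, led by Mical2 2.30 (4.91-fold), an actin-oxidising enzyme, Ablim1 2.07 (4.21-fold) and Ablim3 1.83 (at least 3.44-fold), actin-binding proteins, and Dpysl3 1.96 (3.90-fold), a collapsin response mediator. Lower were Dock1 -1.52 (2.87-fold), an activator of Rac, Crmp1 -1.29 (2.45-fold), a mediator of the Sema3a response, and Farp2 -1.04 (2.05-fold), which acts with plexin-A1. These 3 become 1, Dock1, without carotid body replicate 2 (Crmp1 -0.86, Farp2 -0.99) and also without replicate 3 (Crmp1 -1.27 with an adjusted p of 0.0549 by limma, Farp2 -0.84). Farp2 is also lost without adrenal medulla replicate 2 (-0.98). Without carotid body replicate 1, Chn1 (0.77) and Srgap1 (0.97) were no longer among the higher genes. The list's median was 0.04, beside 0.05 over all named genes, of which 6.06% were called higher and 4.95% lower. Of the brighter protein-coding genes 17.7% were called. Against ganglion 3 were higher in carotid body, Rock1 2.57 (5.95-fold), a kinase that acts on the cytoskeleton, Mical2 2.13 (4.39-fold) and Dock1 1.91 (3.76-fold). Lower were 15, led by Crmp1 -3.32 (9.97-fold), Dpysl5 -2.90 (7.48-fold), Dpysl3 -2.36 (5.12-fold) and Cdk5 -2.30 (4.92-fold), a kinase of collapsin response mediators. The median was -0.28, beside -0.02 over all named genes, of which 5.61% were called higher and 8.28% lower. Of the brighter protein-coding genes 24% were called. Adrenal medulla had 4 higher than ganglion, Dock1 3.43 (10.8-fold), Rock1 2.12 (4.35-fold), Tiam1 1.33 (2.52-fold), an activator of Rac, and Abl1 1.16 (2.23-fold), a tyrosine kinase downstream of Robo receptors. It had 16 lower, led by Dpysl5 -4.53 (23.0-fold), Dpysl3 -4.32 (19.9-fold), Ablim3 -3.79 (at least 13.4-fold) and Srgap1 -2.68 (at least 6.01-fold), which binds Robo1. The median was -0.25, beside -0.08 over all named genes, of which 5.72% were called higher and 7.50% lower. Of the brighter protein-coding genes 24.7% were called.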

How the data were processed

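The deposited values are log2 signals per transcript cluster of an Affymetrix mouse transcriptome 1.0 array, which, per the submitters' processing notes, the authors made with RMA. The submitters' processing notes also name Affymetrix Expression Console. No versions and no genome build for the array are given in the sources used here. Array maxima of 19.65 to 19.93 exceed the log2 range of a 16-bit scan, so an unnamed rescaling is possible, and differences are on the scale of the deposited values. All 11 arrays were used, and their number limits the precision. Raw scans were not analysed here.

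Of 65956 transcript clusters, 30604 pair with 1 symbol in the platform annotation, 2146 with several and 33206 with none. The brightest cluster per gene was kept, and 819 symbols were updated through a RefSeq GRCm38.p6 table, which left 30142 genes. Tissue was the only factor in a limma fit over 11 arrays (limma 3.58.1, R 4.3.3, lmFit and eBayes, moderated test), with Benjamini-Hochberg adjustment over all genes in each comparison. The fit was tested on simulated data. The bound in a tissue is the 95th percentile of the means of 540 vomeronasal receptor and keratin-associated protein genes. Means or arrays under it were set to it before a fold was computed. Given in full are, per comparison and direction, the 6 called members with the largest difference and no overlap of arrays, and from each pathway list up to 4 called genes per comparison and direction. Members, lists and tests were chosen with earlier results of these data known.

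The 22 alternatives were quantile normalization, median centring, a filter on dim genes, protein-coding genes, all clusters, the most variable cluster per gene, an intensity trend, array weights, a replicate block, a covariate of control features, adjusted p alone, and each of the 11 arrays left out. The correlation of deviations between arrays of the same replicate number ran from -0.17 to 0.25, so the numbers were not taken as pairs.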

Additional observations from a re-analysis of the deposited data

Results flagged for a closer look

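In 18 of 130 groups of 4 arrays (65 genes in adrenal medulla and in ganglion), 1 array stood apart from the other 3, by a gap that, as a share of the group's range, exceeded Dixon's 95% critical value for 4 values. Chance alone gives about 1 in 20 groups, and in 10 of the 18 the other 3 arrays carry an identical value, so that any gap counts. The groups of 3 carotid body arrays were not tested. In adrenal medulla, 11 groups had such an array. Slit1 read 7.87 on replicate 4, above a median of 7.24 on the others. Replicate 2 was low for Nrp2 (10.83), Plxna3 (7.72), Epha10 (5.49) and Epha6 (4.32). Replicate 1 was high for Plxna2 (7.82), Epha3 (7.19) and Ephb1 (5.33) and low for Sema3a (4.77), and replicate 3 was low for Efna4 (5.86) and Ntn5 (4.61). In ganglion, 7 groups had one. Replicate 3 was high for Ntn4 (7.62) and Plxnb2 (8.97) and low for Epha1 (4.38), replicate 2 was high for Sema4g (6.45) and low for Sema4b (8.32), replicate 4 was high for Epha10 (5.69) and replicate 1 was high for Robo3 (4.47). Epha1, Epha6, Ephb1, Ntn5, Robo3 and Sema3a lay under the bound in every tissue, so their flagged arrays allow no statement on level. The calls named for Slit1, Ntn4, Plxnb2 and Epha3 remained without the arrays flagged for them.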

How the results depend on the processing

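Of 83 called member differences, 78 were called under all 22 alternatives that gave them a value, and 0 reversed. The other 5 lie near the 2-fold limit. They are Efnb2 between carotid body and adrenal medulla (0.97 with median centring), Sema7a in the same comparison (0.91 with median centring, 0.96 without adrenal medulla replicate 2, 0.99 without carotid body replicate 1) and Epha2 between adrenal medulla and ganglion (0.96 without adrenal medulla replicate 4). Ephb6 between adrenal medulla and ganglion came to -0.94 with quantile normalization, -0.96 with median centring or the control covariate, and -0.97 without ganglion replicate 4. Sema4b between carotid body and ganglion came to -0.95 with quantile normalization or without carotid body replicate 2 and fell just short of the limit with array weights. Adjusted p alone, with no size limit, added 45 differences. It called 39 members (21 higher, 18 lower) between carotid body and adrenal medulla, 43 (29 higher, 14 lower) between carotid body and ganglion, and 46 (28 higher, 18 lower) between adrenal medulla and ganglion, where it called 29.3%, 34.1% and 34.4% of all named genes, and of pathway genes between carotid body and ganglion 15 co-receptors and cues and 38 mediators. Apart from that, 5 uncalled differences passed under some setting: Efna1 (carotid body and ganglion, 1.01 with array weights), Plxna1 (carotid body and adrenal medulla, -1.03 with median centring), Plxna3 (the same, -1.04 without carotid body replicate 1), and Sema5b and Unc5a (adrenal medulla and ganglion, 1.01 to 1.06 and 1.01 to 1.13). With the replicate block the counts were again 24, 30 and 29. Leaving out arrays moved them between 23 and 24, 29 and 30, and 29 and 31. Median centring moved the median of all named genes between carotid body and adrenal medulla from 0.05 to -0.10, and the calls among the members there to 13 higher and 10 lower. The dim filter gave no values for the 8 members under the bound. Signals near the bound limit what can be said of low members, and 1 value on several arrays limits the SD.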
